A study of Mus musculus with 21 samples.

Results

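Purine nucleotides are made in mammalian cells by 2 routes, and the 10 genes described here encode enzymes of both. They were chosen by symbol as Hprt, Aprt, Ppat, Gart, Pfas, Paics, Adsl, Atic, Impdh1 and Impdh2, and all 10 were found once each among the 27968 genes of the table of sorted cells and the 22899 genes of the table of coculture cells. The choice was made from expression values of these same libraries, so the levels of the 10 genes and their differences are given as a description, without a p-value. Expression was measured by RNA-seq as FPKM, a read fragment count scaled to transcript length and to the mapped fragments of the library, with 3 libraries in every group. Sequencing depth is unknown because counts were not used here, and the SD of 3 libraries is the only error of a level.

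The sorted cells formed 5 groups. mESC were mouse embryonic stem cells of 129/ola background, kept on feeder cells and sorted with an antibody to SSEA-1. D5-LSKCD201+ and D5-LSKCD201- cells came from the same 129/ola background after induction in a 3D peptide hydrogel and 5 days on OP9 stromal cells with SCF, IL-3 and Flt3 ligand, and were split by CD201. LSK stands for lineage-negative, Sca-1+ and c-kit+. FL-LSKCD201+ cells were sorted from mid-gestation C57BL/6 fetal liver and BM-LSKCD201+ cells from the bone marrow of C57BL/6 mice aged 6 to 8 weeks. The coculture table held unsorted day 5 cells of 3D+OP9 and 3D+0.1%gel, that is, colonies of 129/ola origin placed on OP9 cells or on 0.1% gelatin alone. The study describes its replicates as biological or as independent experiments, and the sources used here do not list the cultures or animals behind each library, so p-values measure the spread between these libraries. By the labels, strain coincides with the origin of the cells: every mESC and D5 library is 129/ola and every FL and BM library is C57BL/6, and these cannot be told apart in any comparison of D5 with FL or BM. The methods of the study name embryonic stem cells of both strains, so the strain of the mESC and D5 libraries rests on the labels alone.

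In the de novo route, Ppat encodes the amidotransferase that takes the first committed step from phosphoribosyl pyrophosphate (PRPP), and Gart, Pfas, Paics, Adsl and Atic encode the enzymes that carry the chain on to inosine monophosphate (IMP). Adsl also acts on the way from IMP to AMP, while Impdh1 and Impdh2 encode the IMP dehydrogenases that open the way to GMP. In the salvage route, Hprt returns hypoxanthine and guanine, and Aprt returns adenine, to nucleotides by joining them to PRPP. Hprt lies on the X chromosome, is often used as a reference gene for quantitative PCR, and is a classic selectable gene: cells that lack it survive the purine analogue thioguanine but not medium that blocks the de novo route. Hprt-deficient sub-lines are in wide use among embryonic stem cell lines of 129/Ola origin. The sources used here do not give the Hprt genotype of the line that was used, and FPKM given per gene do not show which exons the reads came from.

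On GRCm38, with GENCODE M21 gene models, Hprt (ENSMUSG00000025630) spans chrX:52988137-53021659 on the plus strand and Aprt (ENSMUSG00000006589) spans chr8:122574635-122576909 on the minus strand. Ppat (chr5:76913249-76951578, minus) and Paics (chr5:76951307-76967509, plus) start head to head, and their annotated spans overlap by 272 bases. The library kit is not stated to keep strand, so reads from that overlap could have been counted for either gene. The same limit holds for Aprt, whose whole span of 2275 bases lies within Gm20388 on the other strand, for Ppat over 19391 bases shared with 2310040G07Rik, and for Gart over 2676 bases shared with Gm15964. Shorter overlaps were those of Pfas with Gm25819 (84 bases, other strand) and Mir3062 (105 bases, same strand), of Impdh2 with Ndufaf3 (48 bases, other strand) and of Adsl with Gm6612 (395 bases, same strand). For the sorted cells, the locus recorded for Aprt is chr8:119910360-124345724 and is shared with 115 other genes. The recorded locus is shared with 2 for Gart, 1 each for Ppat, Paics, Adsl and Impdh2, and 0 for Hprt, Pfas, Atic and Impdh1. The effect of shared loci on the levels was not tested. The remaining de novo genes are Gart at chr16:91621186-91646952 (minus), Pfas at chr11:68985697-69008460 (minus), Adsl at chr15:80948490-80970946 (plus) and Atic at chr1:71557150-71579631 (plus). Impdh1 lies at chr6:29200434-29216364 (minus) and Impdh2 at chr9:108560286-108565584 (plus).

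RefSeq promoter windows (GRCm38.p6, 250 bases before to 50 bases after a start) were found for 9 of the 10 genes, all but Pfas. The Hprt window is shown because Hprt is the gene whose level differed most between groups. It lies at chrX:52987828-52988127, plus strand, outside any GENCODE gene model, and capitals mark the GC box, GGGCGG or CCGCCC on the other strand, of which it holds 3.
Hprt promoter: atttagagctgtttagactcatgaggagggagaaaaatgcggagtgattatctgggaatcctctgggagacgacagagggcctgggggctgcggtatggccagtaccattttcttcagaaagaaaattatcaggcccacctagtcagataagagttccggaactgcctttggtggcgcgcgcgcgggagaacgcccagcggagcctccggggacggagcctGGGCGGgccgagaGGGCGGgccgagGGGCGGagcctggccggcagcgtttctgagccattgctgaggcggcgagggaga
The 9 genes all had a GC box in a window, against 35.7% of the 32851 RefSeq promoter windows of mouse. The E-box CACGTG, which reads the same on both strands and shares no base with the GC boxes of these windows, was found for 3 of the 9 genes, Paics, Atic and Impdh2, against 7.15% of the 32851 windows. These stretches of 30 bases are shown, with the E-box in capitals, because of the 9 genes searched these 3 had one.
Paics E-box: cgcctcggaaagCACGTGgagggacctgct
Atic E-box: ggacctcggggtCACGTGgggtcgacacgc
Impdh2 E-box: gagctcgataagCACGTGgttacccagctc
They lie at chr5:76951087-76951116, chr1:71557137-71557166 and chr9:108560314-108560343, all on the plus strand. The Paics stretch falls in an exon of Ppat, that of Impdh2 falls in a UTR exon of its own gene, and that of Atic runs across the start of its gene model into a UTR exon. The Hprt window had no CACGTG. A match of letters does not show that a factor binds there.

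The labelled cell types were checked with marker genes. D5-LSKCD201+ cells carried the genes of the sort (Kit, Ly6a and Procr at 42.3 to 64.2 FPKM). Procr, which encodes CD201, was at 3.02 to 3.82 FPKM in D5-LSKCD201-, 2.23 to 2.67 FPKM in mESC, 66.6 to 69.4 FPKM in FL-LSKCD201+ and 117 to 123 FPKM in BM-LSKCD201+. In D5-LSKCD201+, Ptprc, which encodes CD45, was at 0.305 to 0.602 FPKM and Cd48 at 0 to 0.112 FPKM, while the 7 endothelial markers summed to 1540 to 1550 FPKM. The other 6 of 8 blood markers were at 1 FPKM or more, and the list summed to 309 to 318 FPKM, against 47.0 to 51.5 FPKM in D5-LSKCD201-, 25.6 to 27.7 FPKM in mESC, 1472 to 1744 FPKM in FL-LSKCD201+ and 2068 to 2300 FPKM in BM-LSKCD201+. Fut4, which encodes a fucosyltransferase that can make the sugar epitope SSEA-1, was at 0.118 to 0.318 FPKM in mESC, the lowest of the sorted groups, while all 7 pluripotency markers were at 1 FPKM or more there. D5-LSKCD201- cells kept all 7 pluripotency markers, at a sum of 3481 to 3909 FPKM. FL-LSKCD201+ libraries carried all 6 hepatocyte and all 7 erythroid markers, with sums of 381 to 610 FPKM and 4814 to 10880 FPKM. Among replicates, FL-LSKCD201+ replicate 1, D5-LSKCD201- replicate 2 and BM-LSKCD201+ replicate 1 stood apart from the other 2 libraries of their group in several members. They are named below where they decide an overlap. Summed over genes, FPKM came to 508622 to 620332 in the sorted-cell libraries and 483263 to 508307 in the coculture libraries. The tables were normalized separately and are not compared with each other.

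Hprt was low in every library of embryonic stem cell origin and high in every library from mice. Its level was 1.84, 1.15 and 1.66 FPKM in mESC, 4.84, 7.41 and 6.32 FPKM in D5-LSKCD201-, 5.66, 6.09 and 5.86 FPKM in D5-LSKCD201+, 238, 240.2 and 249.99 FPKM in FL-LSKCD201+, and 165, 168 and 161 FPKM in BM-LSKCD201+. The 9 libraries of mESC and D5 cells thus stayed at or below 7.41 FPKM, and the 6 libraries of FL and BM cells at or above 161 FPKM. The means were 1.55 ± 0.36 FPKM in mESC, 6.19 ± 1.29 FPKM in D5-LSKCD201-, 5.87 ± 0.22 FPKM in D5-LSKCD201+, 243 ± 6.48 FPKM in FL-LSKCD201+ and 164 ± 3.34 FPKM in BM-LSKCD201+ (SD, n = 3). The ratio of the highest to the lowest group mean was 157, with 129 to 217 as the range over single libraries. In order, FL stood above BM, BM above both D5 groups and these above mESC, and only the 2 D5 groups overlapped.

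**Figure D1:**
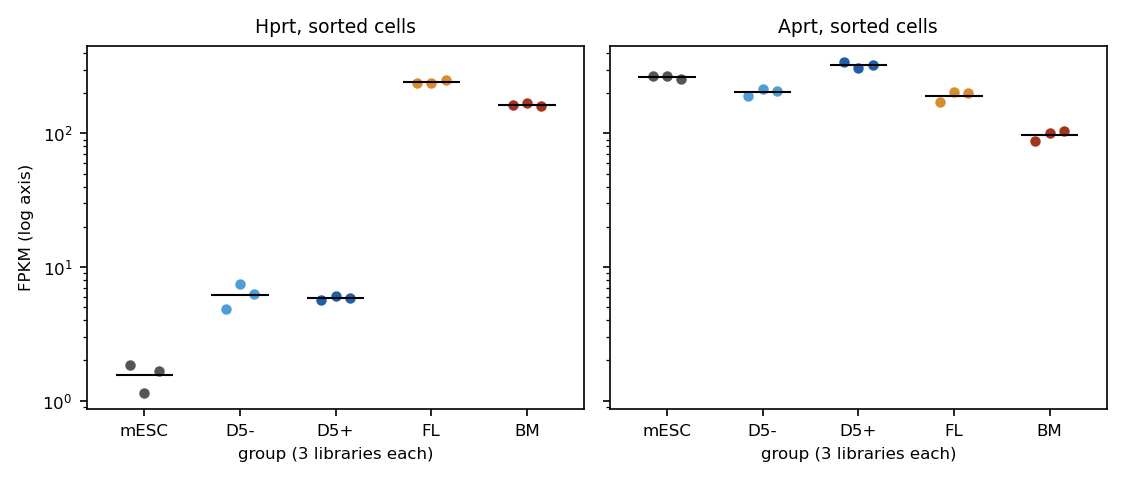
Levels of Hprt and Aprt in FPKM on a log axis for each library of mESC, D5-LSKCD201- (D5-), D5-LSKCD201+ (D5+), FL-LSKCD201+ (FL) and BM-LSKCD201+ (BM), with points for libraries and lines for means of 3. Hprt stays at or below 7.41 FPKM in the 9 libraries of mESC and D5 cells and at or above 161 FPKM in FL and BM, while Aprt stays between 87.7 and 342 FPKM in all 15.

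On the scale of mean log2(FPKM + 1), Hprt was lower in D5-LSKCD201+ than in FL-LSKCD201+, with a difference of -5.15 (SE 0.06), and than in BM-LSKCD201+, with a difference of -4.59 (SE 0.05), and the sets of libraries did not overlap. Between D5-LSKCD201+ and D5-LSKCD201- the difference was -0.05 (SE 0.14), with overlapping libraries. Both D5 groups were above mESC, by 1.44 (SE 0.11) for D5-LSKCD201+ and 1.49 (SE 0.17) for D5-LSKCD201-, without overlap. These low levels depend most on the constant added before the logarithm: with 0.1 in place of 1 the same 2 differences were 1.88 and 1.93. Markers of stromal cells also differed between these groups, with a sum over 13 genes of 20.3 to 21.2 FPKM in mESC, 103 to 133 FPKM in D5-LSKCD201- and 304 to 320 FPKM in D5-LSKCD201+, and 4 of 13, 11 of 13 and 11 of 13 at 1 FPKM or more. Their part in the Hprt levels was not tested. In bulk RNA, fewer cells that express a gene and less RNA per cell cannot be told apart.

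The size of the Hprt difference was set against other abundant genes, a look added after the values had been seen. Of 686 genes at 100 FPKM or more in each of the 6 FL and BM libraries, 21 had a lowest FL or BM library at least 10 times the highest mESC or D5 library, and for Hprt this ratio was 21.7. The 11 genes above Hprt on this ratio were Ptprcap, Lyz2, Prtn3, Ebi3, AI662270, Rac2, Lsp1, Coro1a, Tspan32, Ltb and Nfe2, several of which are known for leukocyte, granulocyte or megakaryocyte functions. A set of 11 common reference genes, also picked afterwards, varied over the 5 groups by ratios of the highest to the lowest mean of 1.39 for Sdha to 121 for B2m, with a median of 3.35. B2m encodes the light chain of MHC class I.

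The 5 genes whose log2(FPKM + 1) was most like that of Hprt over the 15 sorted-cell libraries, of 14456 genes ranked, were Serpinb6b (Pearson r 0.998), P2rx1 (0.996), Gm27177 (0.996), Fcer1g (0.996) and Rac2 (0.995). Serpinb6b encodes a serine protease inhibitor, P2rx1 an ATP-gated ion channel, Fcer1g the common gamma chain of Fc receptors and Rac2 a small GTPase of blood cells. Rac2 was 0.406 ± 0.0593 FPKM in mESC, 2.22 ± 0.458 in D5-LSKCD201+ and 170.4 ± 13.3 in BM-LSKCD201+ (SD, n = 3). The correlations are over libraries that share strain, table and cell origin and carry no p-value.

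The neighbours of Hprt on the X chromosome were read in the same libraries. Within 500 kb on either side, 14 other genes were in the sorted-cell table, of which 9 averaged 0.5 FPKM or more across the 15 libraries: Gpc3, Gm14586, Ccdc160, Rps2-ps13 and Phf6 upstream, and C430049B03Rik, Plac1, Fam122b and Mospd1 downstream. For none of the 9 was the lowest FL or BM library 10 times the highest mESC or D5 library or more. Phf6, the nearest of the 9 at 31194 bases, encodes a chromatin-associated zinc finger protein and was 10.5 ± 0.735 FPKM in mESC, 11.8 ± 0.0625 in D5-LSKCD201-, 9.98 ± 0.833 in D5-LSKCD201+, 14.3 ± 0.58 in FL-LSKCD201+ and 15.9 ± 0.716 in BM-LSKCD201+ (SD, n = 3). As for Hprt, every FL and BM library lay above every mESC and D5 library, at 14.0 to 16.6 FPKM against 9.04 to 11.8 FPKM. The log2 fold change of Phf6 in D5-LSKCD201+ was -0.48 (SE 0.09, limma adjusted p = 0.00191) against FL-LSKCD201+ and -0.62 (SE 0.08, adjusted p = 0.000167) against BM-LSKCD201+, short of the fold of 2 required for a call. Plac1, a gene known for its placental expression, lies 48336 bases downstream and went the other way, with 262 to 269.6 FPKM in D5-LSKCD201+ and at most 1.15 FPKM in the FL and BM libraries, a larger difference than that of Hprt (log2 fold change 7.44, SE 0.19, limma adjusted p = 1.80e-07 against FL-LSKCD201+, and 7.86, SE 0.09, adjusted p = 1.73e-09 against BM-LSKCD201+). Gpc3, which encodes a cell surface proteoglycan, was 38.8 ± 1.79 FPKM in mESC, 543 ± 41.2 FPKM in D5-LSKCD201-, 21.7 ± 2.76 FPKM in D5-LSKCD201+, 11.99 ± 1.39 FPKM in FL-LSKCD201+ and 0.701 ± 0.475 FPKM in BM-LSKCD201+ (SD, n = 3). C430049B03Rik, at 33387 bases, was also called higher in D5-LSKCD201+ than in FL-LSKCD201+ (2.98, SE 0.21, adjusted p = 1.71e-05) and than in BM-LSKCD201+ (3.78, SE 0.14, adjusted p = 2.20e-07). Mospd1 was called higher than in BM-LSKCD201+ (1.55, SE 0.08, adjusted p = 8.71e-07) and was 0.63 (SE 0.10, adjusted p = 0.000834) against FL-LSKCD201+, short of a call. Gm14586 was called in neither comparison, and Ccdc160 was tested in neither, with a mean of 0.680 FPKM in D5-LSKCD201+ (n = 3) and at most 0.054 FPKM in FL and BM libraries. Fam122b was called higher in D5-LSKCD201+ than in FL-LSKCD201+ (log2 fold change 2.02, SE 0.08, limma adjusted p = 1.46e-06) and than in BM-LSKCD201+ (1.79, SE 0.10, adjusted p = 1.91e-06). Rps2-ps13, a pseudogene of a ribosomal protein gene whose reads cannot be separated safely from its parent, was called higher in D5-LSKCD201+ than in FL-LSKCD201+ and BM-LSKCD201+, by 3.49 (SE 0.23, adjusted p = 1.26e-05) and 2.84 (SE 0.26, adjusted p = 2.71e-05).

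**Figure D2:**
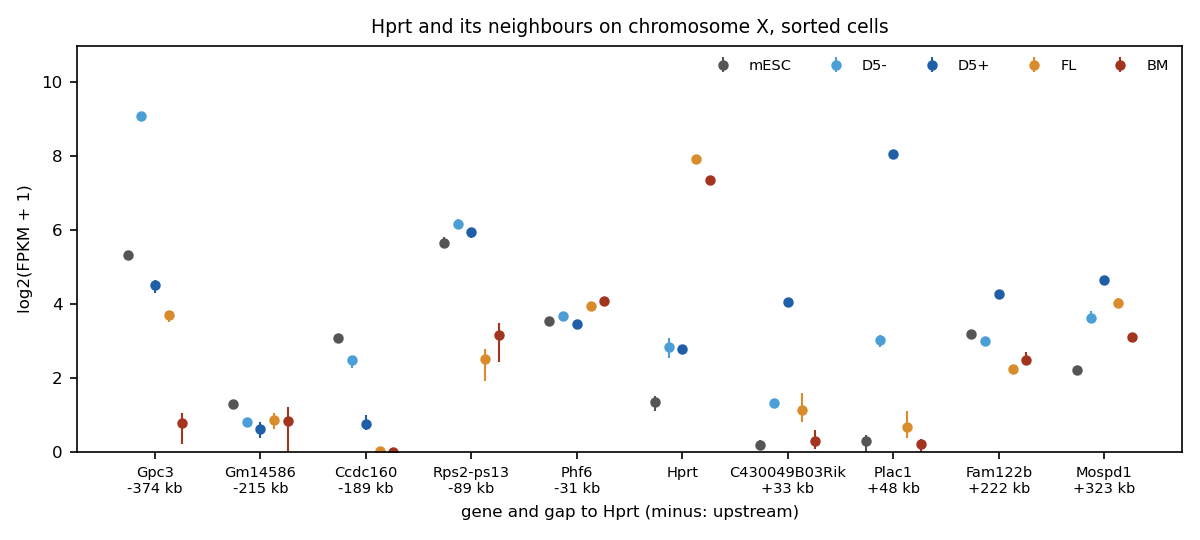
Mean log2(FPKM + 1) of Hprt and its 9 measured neighbours on chromosome X in the 5 sorted groups, ordered by position, with the gap to Hprt in kilobases under each name; bars span the lowest to the highest of 3 libraries. Hprt has FL and BM at or above 161 FPKM and the other groups at or below 7.41 FPKM, Phf6 at 31194 bases keeps all groups between 9.04 and 16.6 FPKM, and Plac1 at 48336 bases peaks in D5-LSKCD201+.

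Aprt, the adenine salvage gene, ran in another order. It was 271, 269 and 256 FPKM in mESC, 191, 215 and 208 FPKM in D5-LSKCD201-, 342, 311 and 325 FPKM in D5-LSKCD201+, 171, 204 and 200.2 FPKM in FL-LSKCD201+, and 87.7, 101 and 105 FPKM in BM-LSKCD201+. The D5-LSKCD201+ libraries were the highest and the BM-LSKCD201+ libraries the lowest, with a ratio of the means of 3.34, and only D5-LSKCD201- and FL-LSKCD201+ overlapped. Of the summed FPKM of Hprt and Aprt, Hprt made up 0.426% to 0.675% in mESC, 2.48% to 3.33% in D5-LSKCD201-, 1.63% to 1.92% in D5-LSKCD201+, 54.1% to 58.1% in FL-LSKCD201+ and 60.6% to 65.2% in BM-LSKCD201+. Of the 9 members other than Hprt, the one with the closest pattern to Hprt over the 15 libraries was Atic (Pearson r 0.59), and the most opposed were Ppat (-0.78), Aprt (-0.72) and Gart (-0.69). The median over the 9 was -0.55.

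The de novo genes were highest in mESC and lowest in D5-LSKCD201+ or BM-LSKCD201+, with Adsl and Atic as exceptions in part. Summed over the 6 genes, FPKM came to 889 ± 5.56 in mESC, 727 ± 43.9 in D5-LSKCD201-, 548 ± 26.8 in FL-LSKCD201+, 359 ± 7.28 in D5-LSKCD201+ and 329 ± 9.02 in BM-LSKCD201+ (SD, n = 3), and no 2 groups overlapped in this sum. One by one, only the group means of Gart and Paics followed that order, and those of Ppat, Pfas, Adsl and Atic did not. A list of 15 proliferation genes, among them Mki67, Top2a and the Mcm genes, had sums in the same order of groups, of 3223 ± 32.7, 2759 ± 168, 1930 ± 97.5, 1649 ± 4.37 and 709 ± 9.33 FPKM. Only 6 of the 15 genes followed that order one by one: Mki67 and Pcna, for example, were highest in FL-LSKCD201+, and Mcm6 and Mcm7 were lower in D5-LSKCD201+ than in BM-LSKCD201+. Pluripotency markers also differed between these groups, with a sum over 7 genes of 6299 to 6843 FPKM in mESC and 3481 to 3909 FPKM in D5-LSKCD201-. That sum was 22.7 to 30.4 FPKM in D5-LSKCD201+, 5.35 to 10.1 FPKM in FL-LSKCD201+ and 0 to 10.2 FPKM in BM-LSKCD201+. The part of cell division and of these marker differences in the de novo levels was not tested.

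Ppat, the committed step, was 59.2, 62.6 and 67.4 FPKM in mESC, 50.3, 53.7 and 50.5 FPKM in D5-LSKCD201-, 28.1, 28.5 and 27.5 FPKM in D5-LSKCD201+, 29.5, 26.8 and 26.2 FPKM in FL-LSKCD201+, and 13.4, 11.6 and 10.8 FPKM in BM-LSKCD201+. D5-LSKCD201+ and FL-LSKCD201+ overlapped, and the other groups were separate, in the order mESC, D5-LSKCD201-, D5-LSKCD201+ with FL-LSKCD201+, and BM-LSKCD201+. The overlap rests on FL-LSKCD201+ replicate 1 alone (29.5 FPKM), as the other FL-LSKCD201+ libraries lay below every D5-LSKCD201+ library. Gart, which encodes a protein with 3 enzyme activities of the route, was 286, 286 and 286 FPKM in mESC, 176, 192 and 178 FPKM in D5-LSKCD201-, 65.4, 67.3 and 65.3 FPKM in D5-LSKCD201+, 96.3, 87.5 and 82.6 FPKM in FL-LSKCD201+, and 48.8, 48.7 and 47.8 FPKM in BM-LSKCD201+. No 2 groups overlapped for Gart, and its mean in mESC was 5.91 times that in BM-LSKCD201+, the widest range of the 6 genes. Paics, a bifunctional enzyme of the middle of the route, was 405, 406 and 409 FPKM in mESC, 358, 415 and 371 FPKM in D5-LSKCD201-, 198, 199 and 195 FPKM in D5-LSKCD201+, 309, 271 and 265 FPKM in FL-LSKCD201+, and 167, 148 and 149.8 FPKM in BM-LSKCD201+. Only mESC and D5-LSKCD201- overlapped for Paics, through D5-LSKCD201- replicate 2 alone (415 FPKM). The other D5-LSKCD201- libraries lay below every mESC library.

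Ppat and Paics, which share their start region, kept an unequal ratio. Paics was 6.07 to 6.85 times Ppat in mESC, 7.12 to 7.72 times in D5-LSKCD201-, 6.99 to 7.09 times in D5-LSKCD201+, 10.1 to 10.5 times in FL-LSKCD201+ and 12.4 to 13.9 times in BM-LSKCD201+. Both genes were lower in BM-LSKCD201+ than in mESC in all libraries, Ppat by a ratio of means of 5.28 and Paics by 2.63. Over the 15 libraries Gart, Paics and Ppat were the closest of the de novo genes to each other, with Pearson r of 0.96 for Gart and Paics, 0.94 for Ppat and Paics and 0.94 for Ppat and Gart. The 15 pairs of de novo genes ranged from -0.07 for Ppat and Adsl to 0.96, with a median of 0.50. The libraries share their groups, so these values describe the order of 5 groups more than 15 separate points.

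Pfas, which adds nitrogen from glutamine in the fourth step, was 28.2, 29.8 and 27.6 FPKM in mESC, 27.1, 12.4 and 24.6 FPKM in D5-LSKCD201-, 7.43, 8.51 and 7.67 FPKM in D5-LSKCD201+, 19.6, 24.0 and 24.1 FPKM in FL-LSKCD201+, and 8.93, 6.82 and 6.60 FPKM in BM-LSKCD201+. Replicate 2 of D5-LSKCD201- was the lowest of its group, and D5-LSKCD201- overlapped FL-LSKCD201+ through it alone. D5-LSKCD201+ overlapped BM-LSKCD201+ through BM-LSKCD201+ replicate 1 alone (8.93 FPKM), as the other BM-LSKCD201+ libraries lay below every D5-LSKCD201+ library. Adsl was 84.3, 81.4 and 82.5 FPKM in mESC, 70.6, 85.1 and 70.9 FPKM in D5-LSKCD201-, 46.4, 52.4 and 49.3 FPKM in D5-LSKCD201+, 77.4, 84.9 and 81.4 FPKM in FL-LSKCD201+, and 79.6, 91.0 and 91.9 FPKM in BM-LSKCD201+. Only D5-LSKCD201+ stood below the rest, and the other 4 groups overlapped with a neighbour in order. For D5-LSKCD201- this rests on replicate 2 alone, at 85.1 FPKM against 70.6 and 70.9 FPKM in its other libraries. For BM-LSKCD201+ it rests on replicate 1 alone, at 79.6 FPKM against 91.0 and 91.9 FPKM. Atic, which closes the ring to IMP, was 22.0, 20.8 and 23.4 FPKM in mESC, 12.6, 19.6 and 14.1 FPKM in D5-LSKCD201-, 9.12, 11.6 and 10.4 FPKM in D5-LSKCD201+, 46.0, 45.8 and 47.3 FPKM in FL-LSKCD201+, and 22.0, 17.2 and 16.9 FPKM in BM-LSKCD201+. FL-LSKCD201+ was the highest and D5-LSKCD201+ the lowest group, 4.48 times apart in their means, and both were separate from all others. BM-LSKCD201+ overlapped mESC through BM-LSKCD201+ replicate 1 alone (22.0 FPKM), and D5-LSKCD201- through D5-LSKCD201- replicate 2 alone (19.6 FPKM).

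**Figure D3:**
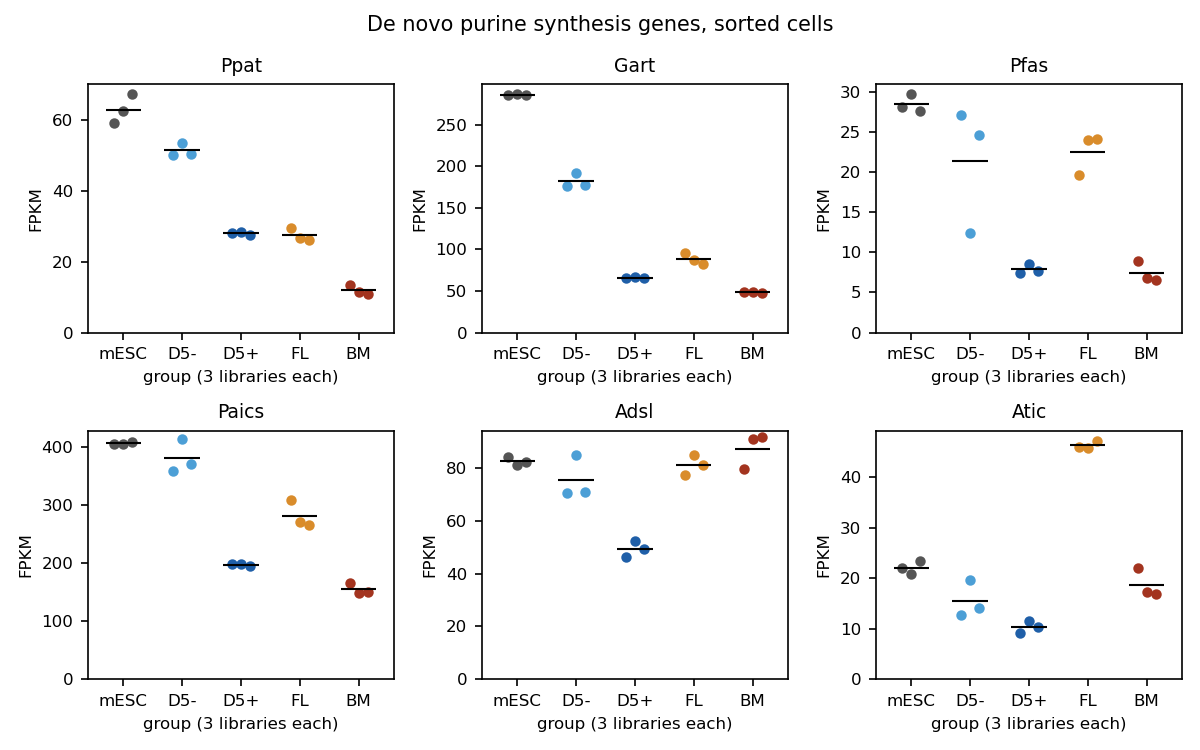
FPKM of the 6 de novo genes in each library of the 5 sorted groups, with points for libraries, lines for means of 3 and axes from 0. Ppat, Gart and Paics have their highest mean in mESC and their lowest in BM-LSKCD201+, Adsl is lowest in D5-LSKCD201+, and Atic is highest in FL-LSKCD201+, at 45.8 to 47.3 FPKM.

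The IMP dehydrogenases differed in their order of groups, with D5-LSKCD201+ and BM-LSKCD201+ highest for Impdh1 and lowest for Impdh2. Impdh1 was 31.7, 30.9 and 30.7 FPKM in mESC, 35.3, 19.2 and 34.8 FPKM in D5-LSKCD201-, 53.0, 54.9 and 54.3 FPKM in D5-LSKCD201+, 36.7, 23.9 and 23.3 FPKM in FL-LSKCD201+, and 57.8, 50.6 and 52.2 FPKM in BM-LSKCD201+. D5-LSKCD201+ and BM-LSKCD201+ overlapped and stood above mESC, D5-LSKCD201- and FL-LSKCD201+, which overlapped one another. The overlap of D5-LSKCD201+ with BM-LSKCD201+ rests on BM-LSKCD201+ replicate 1 alone (57.8 FPKM). The other BM-LSKCD201+ libraries lay below every D5-LSKCD201+ library. The overlaps among mESC, D5-LSKCD201- and FL-LSKCD201+ rest on D5-LSKCD201- replicate 2 (19.2 FPKM) and FL-LSKCD201+ replicate 1 (36.7 FPKM). The other D5-LSKCD201- libraries lay above every mESC library, and the other FL-LSKCD201+ libraries below every mESC library. Impdh2, the more abundant of the pair in every library, was 273, 258 and 265 FPKM in mESC, 221, 270.4 and 225 FPKM in D5-LSKCD201-, 162, 161 and 163 FPKM in D5-LSKCD201+, 176, 206 and 197 FPKM in FL-LSKCD201+, and 162, 160.0 and 159 FPKM in BM-LSKCD201+. mESC overlapped D5-LSKCD201- through D5-LSKCD201- replicate 2 alone (270.4 FPKM, against 221 and 225 FPKM in its other libraries), and D5-LSKCD201+ overlapped BM-LSKCD201+. The latter overlap rests on BM-LSKCD201+ replicate 1 alone, at 162.2 FPKM against 161.1 to 162.7 FPKM in D5-LSKCD201+. The other BM-LSKCD201+ libraries lay below every D5-LSKCD201+ library. The summed FPKM of the pair ran from 211 to 305 over the 15 libraries.

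Impdh1 accounted for 24.7% to 25.4% of the summed FPKM of the pair in D5-LSKCD201+ and 24.0% to 26.3% in BM-LSKCD201+, against 10.4% to 10.7% in mESC, 6.62% to 13.8% in D5-LSKCD201- and 10.4% to 17.2% in FL-LSKCD201+. The top of the FL range is replicate 1, at 36.7 FPKM of Impdh1 against 23.3 and 23.9 in the others. The same library had an erythroid marker sum of 4814 FPKM against 10008 and 10880, and a hepatocyte marker sum of 381 FPKM against 600 and 610. Their part in the Impdh1 level was not tested. The bottom of the D5-LSKCD201- range is replicate 2, whose erythroid marker sum was 138 FPKM against 66.6 and 74.5, pluripotency marker sum 3481 FPKM against 3751 and 3909, and stromal marker sum 103 FPKM against 132 and 133. Their part was not tested either. Pearson r between Impdh1 and Impdh2 over the 15 libraries was -0.78.

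**Figure D4:**
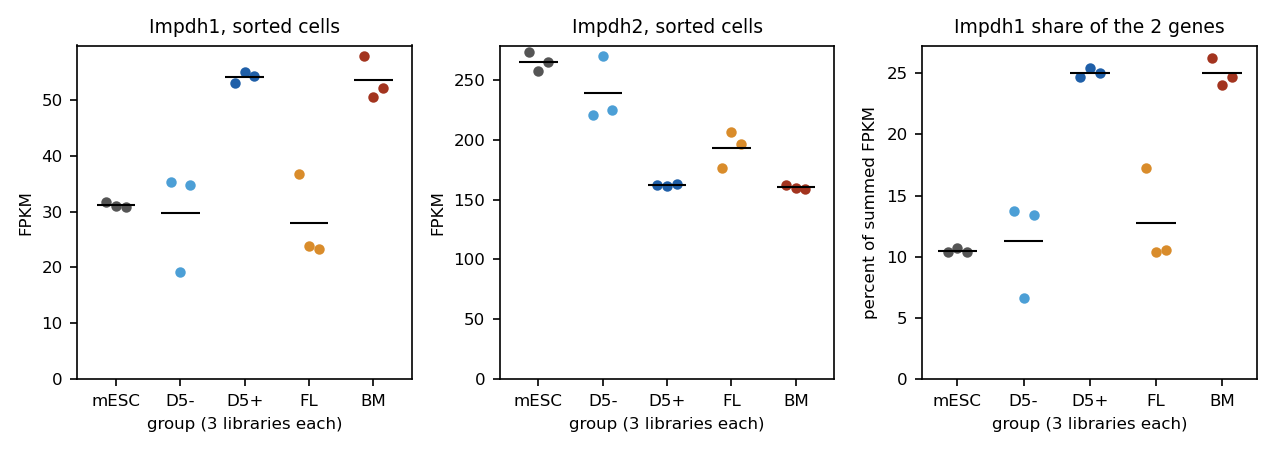
FPKM of Impdh1 and Impdh2, and the percent of their summed FPKM that is Impdh1, in each library of the 5 sorted groups, with lines for means of 3 and axes from 0. D5-LSKCD201+ and BM-LSKCD201+ sit together at 24.0% to 26.3%, above every library of the other groups, the highest of which is 17.2%.

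The members were then counted in each comparison as apart when the libraries of both groups did not overlap and the means differed by at least 1 on the log2(FPKM + 1) scale, and the share of all tested genes that met the same rule is given beside each count. The choice of the members used these contrasts, so nothing is read from the counts. In D5-LSKCD201+ against D5-LSKCD201-, 0 members were higher and 2 lower by this rule, where 24.7% of all genes were apart (10.8% higher and 13.9% lower): Gart differed by -1.45 (SE 0.05) and Pfas by -1.27 (SE 0.27). In D5-LSKCD201+ against mESC, 1 was higher and 5 lower, where 37.6% of all genes were apart (19.5% higher and 18.1% lower): besides Hprt these were Gart (-2.10, SE 0.03), Pfas (-1.73, SE 0.06), Ppat (-1.14, SE 0.05), Paics (-1.04, SE 0.03) and Atic (-1.02, SE 0.08). In D5-LSKCD201- against mESC, Hprt was the 1 member apart and was higher, where 14.4% of all genes were apart (10.9% higher and 3.55% lower). The median difference of the 10 members was -0.58, -0.88 and -0.22 in these comparisons, against -0.12, -0.07 and 0.05 over all genes tested, or -0.01, -0.13 and -0.10 after quantile normalization.

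Against the cells from mice, D5-LSKCD201+ had 3 members apart and lower than in FL-LSKCD201+, where 34.7% of all genes were apart (15.1% higher and 19.6% lower): Hprt, Atic (-2.07, SE 0.09) and Pfas (-1.41, SE 0.10). Against BM-LSKCD201+, Hprt was apart and lower and 2 members were apart and higher, Aprt (1.73, SE 0.07) and Ppat (1.17, SE 0.08), where 44.7% of all genes were apart (17.5% higher and 27.2% lower). In FL-LSKCD201+ against BM-LSKCD201+, 3 members were apart and higher, Pfas (1.48, SE 0.14), Atic (1.27, SE 0.12) and Ppat (1.14, SE 0.11), where 19.1% of all genes were apart (7.75% higher and 11.4% lower). Without FL-LSKCD201+ replicate 1, 5 members were apart: Aprt was added to the higher ones, and Impdh1 was apart and lower. The median difference of the members was -0.46, 0.05 and 0.86, against -0.16, -0.23 and -0.13 over all genes. Quantile normalization moved the members' medians to -0.48, 0.15 and 0.84 and the all-gene medians to -0.05, -0.02 and -0.02, and left these counts as they were. The members' median of D5-LSKCD201+ against BM-LSKCD201+ was 0.01 without BM-LSKCD201+ replicate 3 and 0.14 without BM-LSKCD201+ replicate 1. The comparisons share the D5-LSKCD201+ libraries, so they are not independent of one another.

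In unsorted day 5 cells, 3D+OP9 and 3D+0.1%gel overlapped for 8 of the 10 members. Hprt was 0.57, 0.95 and 1.66 FPKM in 3D+OP9 and 0.55, 0.39 and 0.66 FPKM in 3D+0.1%gel, and the groups overlapped, with a difference of 0.40 (SE 0.20) on the log2(FPKM + 1) scale, or 0.78 with 0.1 added in place of 1. That difference was 0.28 after quantile normalization and 0.19 to 0.57 with a library left out. Of the 10 members, 0 were apart, where 3.04% of all genes were (2.44% higher and 0.602% lower). Impdh1 was 24.1, 25.1 and 20.6 FPKM in 3D+OP9 and 28.2, 28.9 and 29.6 FPKM in 3D+0.1%gel, without overlap, and differed by -0.31 (SE 0.09). Aprt was 162, 177 and 150 FPKM against 183, 180 and 182 FPKM, also without overlap, and differed by -0.16 (SE 0.08). The other 7 members overlapped, with differences from -0.17 for Ppat to 0.09 for Pfas. The de novo genes summed to 492 ± 25.1 FPKM in 3D+OP9 and 502 ± 21.7 FPKM in 3D+0.1%gel (SD, n = 3). The stromal marker sum was 145 to 175 FPKM in 3D+OP9 and 74.4 to 89.1 FPKM in 3D+0.1%gel, with 11 of 13 and 9 of 13 markers at 1 FPKM or more. Other marker sums differed by more: erythroid markers came to 213 to 767 FPKM and 4.76 to 22.0 FPKM (7 of 7 and 4 of 7), endothelial markers to 106 to 128 FPKM and 22.9 to 38.5 FPKM (7 of 7 and 4 of 7), and blood markers to 24.3 to 30.3 FPKM and 6.23 to 6.79 FPKM (5 of 8 and 2 of 8). Their part in the member levels was not tested.

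**Figure D5:**
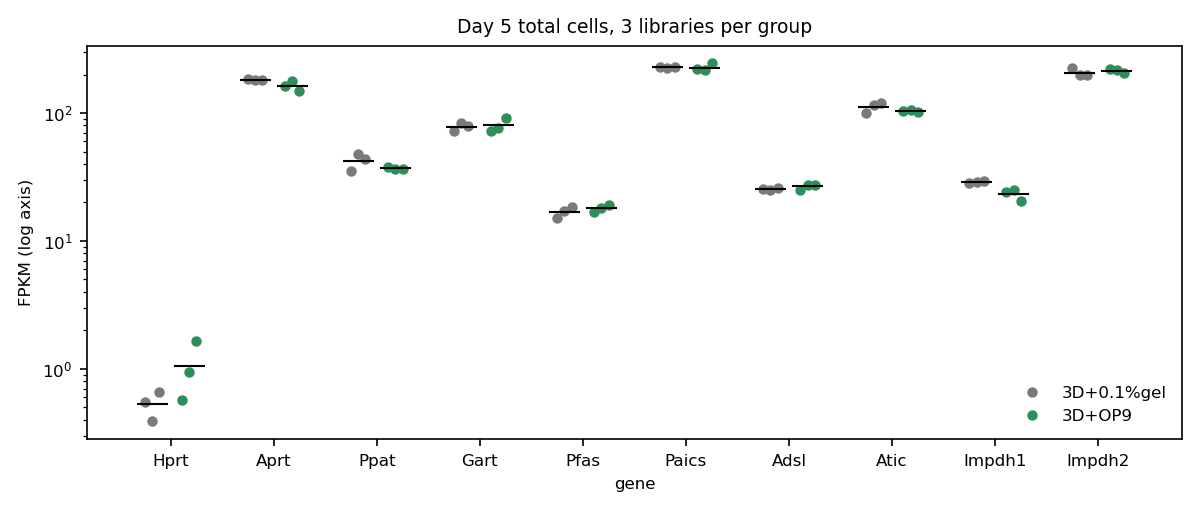
FPKM of the 10 members on a log axis in unsorted day 5 cells, with 3 libraries each of 3D+0.1%gel and 3D+OP9 and lines for means. Hprt lies at 0.39 to 1.66 FPKM in all 6 libraries, and the other 9 genes lie between 15.1 and 244 FPKM with the groups close together.

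Around the members, 50 other genes of purine metabolism were listed by role, of which 48 were in the table of sorted cells and 49 in that of coculture cells: the supply of PRPP, the step from IMP to AMP and GMP, nucleoside and nucleotide kinases, deaminases and reductases, nucleotidases and breakdown, and transport of bases and nucleosides. They were tested with limma on all genes of each comparison, and a gene was called when its Benjamini-Hochberg adjusted p was under 0.05 and its fold change was 2 or more in either direction. In D5-LSKCD201+ against D5-LSKCD201-, 5 of 41 tested were higher and 5 lower, where 24.7% of all genes were called (10.8% higher and 13.9% lower). Slc43a3, a transporter of purine bases, was higher, with 61.0, 59.3 and 58.3 FPKM against 6.89, 8.74 and 7.46 FPKM (log2 fold change 2.80, SE 0.09, adjusted p = 3.68e-07). Gmpr, which turns GMP back to IMP, was also higher (1.86, SE 0.09, adjusted p = 2.31e-06). Adk, the adenosine kinase, was lower (-1.81, SE 0.08, adjusted p = 2.14e-06).

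In D5-LSKCD201+ against mESC, 8 of 40 were called higher and 7 lower, where 37.6% of all genes were called (19.5% higher and 18.1% lower). Slc43a3 was again the largest (3.78, SE 0.09, adjusted p = 7.23e-10). Prps1, a synthetase of the PRPP that both purine routes use, was 50.2, 52.2 and 48.7 FPKM against 264, 257 and 264 FPKM in mESC (-2.35, SE 0.04, adjusted p = 6.15e-11). By role, 0 were higher and 3 lower of 5 tested for PRPP supply, 4 and 1 of 11 for nucleotidases and breakdown, 2 and 1 of 11 for kinases, 1 and 1 of 6 for deaminases and reductases, 1 and 1 of 4 for transport, and 0 of 3 for the step from IMP to AMP and GMP. Prps1 has a close copy, Prps1l3, with which it may share reads. Ada, the adenosine deaminase, was lower as well (-2.19, SE 0.11, adjusted p = 7.59e-08). In D5-LSKCD201- against mESC, 4 of 40 were higher and 3 lower, where 14.3% of all genes were called (10.9% higher and 3.48% lower), with the adenylate kinases Ak4 (2.95, SE 0.09, adjusted p = 7.38e-07) and Ak3 (1.43, SE 0.07, adjusted p = 6.52e-06) and the adenylosuccinate synthase gene Adssl1 (1.64, SE 0.14, adjusted p = 5.99e-05) among the higher. Quantile normalization turned this split to 3 higher and 4 lower, and that of all genes called from 1476 higher and 473 lower to 1104 higher and 741 lower.

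In D5-LSKCD201+ against FL-LSKCD201+, 2 of 43 were called higher and 9 lower, where 34.7% of all genes were called (15.1% higher and 19.6% lower). Adssl1, whose product takes IMP towards AMP, was 4.47, 3.18 and 3.22 FPKM against 49.5, 52.8 and 51.6 FPKM (-3.51, SE 0.12, adjusted p = 5.32e-07). Its partner Adss was at 46.6 to 48.8 FPKM and 56.6 to 58.2 FPKM. Ada was 0.85, 1.09 and 1.36 FPKM against 17.5, 16.8 and 17.7 FPKM (-3.13, SE 0.11, adjusted p = 5.88e-07). Pnp2, a near copy of the purine nucleoside phosphorylase gene Pnp that may share its reads, was lower too (-2.45, SE 0.11, adjusted p = 2.24e-06). By role, 0 were higher and 4 lower of 12 tested for nucleotidases and breakdown, 0 and 2 of 7 for deaminases and reductases, 1 and 2 of 5 for transport, 0 and 1 of 3 for the step from IMP to AMP and GMP, 1 and 0 of 11 for kinases, and 0 of 5 for PRPP supply.

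In D5-LSKCD201+ against BM-LSKCD201+, 5 of 43 were called higher and 8 lower, where 44.7% of all genes were called (17.5% higher and 27.2% lower), and quantile normalization made this 7 and 7. Adssl1 was 120, 129 and 130.0 FPKM in BM-LSKCD201+ (-4.79, SE 0.11, adjusted p = 1.70e-08). Ada (-3.78, SE 0.10, adjusted p = 3.92e-08) and Slc28a2, a concentrative nucleoside transporter (-3.77, SE 0.10, adjusted p = 3.04e-08), followed. In FL-LSKCD201+ against BM-LSKCD201+, 3 of 43 were higher and 4 lower, where 19.1% of all genes were called (7.78% higher and 11.3% lower), against 6 and 4 after quantile normalization. Pnp2 (1.83, SE 0.13, adjusted p = 3.63e-05) and the nucleoside diphosphate kinase Nme1 (1.29, SE 0.12, adjusted p = 0.000113) were higher in fetal liver and Slc28a2 was lower (-1.36, SE 0.16, adjusted p = 0.000376). Over all genes called, quantile normalization changed which direction had more calls in D5-LSKCD201+ against D5-LSKCD201- (1475 higher and 1904 lower to 1716 and 1599), against mESC (2626 and 2430 to 2499 and 2611) and against FL-LSKCD201+ (2054 and 2673 to 2314 and 2296). The median log2 fold change of the listed genes was -0.23, -0.14, -0.10, -0.36, -0.16 and 0.15 in these 6 comparisons in turn, beside -0.12, -0.07, 0.05, -0.16, -0.23 and -0.13 over all genes. These small medians moved with the setting: that of D5-LSKCD201+ against FL-LSKCD201+ was -0.62 with a pseudocount of 0.1, after quantile normalization that of D5-LSKCD201- against mESC was -0.19 and that of D5-LSKCD201+ against BM-LSKCD201+ was -0.04 beside -0.02 over all genes, and without FL-LSKCD201+ replicate 1 that of FL-LSKCD201+ against BM-LSKCD201+ was 0.03.

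In 3D+OP9 against 3D+0.1%gel, 2 of 40 other purine genes were called higher and 0 lower, where 2.62% of all genes were called (2.11% higher and 0.509% lower). Slc43a3 was 5.29, 6.40 and 7.33 FPKM against 2.82, 2.12 and 2.71 FPKM (1.04, SE 0.15, adjusted p = 0.00774). Xdh, the xanthine dehydrogenase of purine breakdown, was 1.23, 0.71 and 1.71 FPKM and was listed at 0 in all 3 libraries of 3D+0.1%gel (adjusted p = 0.0110). The count fell to 1 without 3D+OP9 replicate 1 and to 0 without 3D+OP9 replicate 3 or without 3D+0.1%gel replicate 2. The median log2 fold change of the list was -0.01, beside 0.01 over all genes.

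Pyrimidine genes were counted beside the purine genes, from a list of 25 that holds the de novo genes Cad, Dhodh and Umps and the salvage and breakdown genes. In D5-LSKCD201+ against mESC, 3 of 23 were called higher and 8 lower, where 19.5% of all genes were called higher and 18.1% lower, with Cad (-1.35, SE 0.05, adjusted p = 1.79e-08) and Umps (-1.13, SE 0.04, adjusted p = 1.68e-08) among the lower and Cda, the cytidine deaminase (2.57, SE 0.11, adjusted p = 3.94e-08), among the higher. In FL-LSKCD201+ against BM-LSKCD201+, 7 of 21 were higher and 2 lower, where 7.78% and 11.3% of all genes were, with Cad at 1.07 (SE 0.16, adjusted p = 0.00123). The counts were 1 higher and 4 lower of 23 in D5-LSKCD201+ against D5-LSKCD201-, 2 and 3 of 22 against FL-LSKCD201+, 5 and 3 of 22 against BM-LSKCD201+, and 1 and 0 of 21 in D5-LSKCD201- against mESC, to be read beside the shares of all genes given above for the same comparisons. With a pseudocount of 0.1 the first of these was 4 higher and 4 lower. In 3D+OP9 against 3D+0.1%gel limma called 0 of 22, with 4 at an unadjusted p under 0.05. Of the 15 proliferation genes, 10 were called higher in FL-LSKCD201+ than in BM-LSKCD201+, where 7.78% of all genes were. In D5-LSKCD201+, 8 were higher than in BM-LSKCD201+ (17.5% of all genes) and 8 lower than in mESC (18.1%). In each of these comparisons 0 went in the other direction. Against D5-LSKCD201- and FL-LSKCD201+, 2 each were lower in D5-LSKCD201+ (13.9% and 19.6% of all genes). Limma called 0 of the 15 in D5-LSKCD201- against mESC and 0 in 3D+OP9 against 3D+0.1%gel, with 9 and 3 at an unadjusted p under 0.05. On the adjusted p alone these 2 comparisons had 1 higher and 7 lower, and 1 higher and 0 lower. By that rule D5-LSKCD201+ had 0 higher and 12 lower against D5-LSKCD201-, and 4 and 5 against FL-LSKCD201+. It had 1 and 13 against mESC and 12 and 3 against BM-LSKCD201+. FL-LSKCD201+ against BM-LSKCD201+ had 15 and 0. Over all genes, the adjusted p alone called 4374 higher and 3044 lower of 13596 in D5-LSKCD201- against mESC. It called 597 and 294 of 12958 in 3D+OP9 against 3D+0.1%gel, and 3004 and 4442 of 13503 in FL-LSKCD201+ against BM-LSKCD201+. For D5-LSKCD201+ it called 3930 and 5419 of 13691 against D5-LSKCD201-, and 4105 and 5718 of 13627 against FL-LSKCD201+. For the same cells it called 5418 and 6078 of 13441 against mESC, and 4714 and 6772 of 13775 against BM-LSKCD201+.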

How the data were processed

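RNA of 21 libraries was measured, 3 in each of 7 groups named by the sample labels. The authors aligned reads with HISAT2 2.0.5 to GRCm38 and deposited FPKM from StringTie 1.3.3, and their processing notes also list Cuffdiff 1.3.0 and mm9. They used TRIzol, a VAHTS mRNA-seq kit and 150-base paired reads.  Of 22899 coculture genes, 3578 were blank. Depth is unknown.

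Genes averaging 0.5 FPKM or more across the 6 libraries of a comparison were tested on log2(FPKM + 1) with limma 3.58.1 (trend, two-sided) in R 4.3.3, in 7 comparisons of 3 against 3 libraries, with Benjamini-Hochberg adjustment over all genes tested; an exact permutation test could not go below p = 0.1. The code was tested on simulated data. Figures used Python 3.11.15 and matplotlib 3.10.9. Members and lists were chosen with earlier results of these data known. Named genes were the members, the 3 largest called purine genes per comparison, the 5 genes most like Hprt, and its neighbours within 500 kb; pyrimidine and proliferation genes named as examples, the Adss level and the reference genes were chosen after their values were seen. One further reference gene is not reported here. Same-numbered libraries of FL-LSKCD201+ and BM-LSKCD201+ deviated together (r 0.24, 0.20 and 0.16), and this pairing comes from the data, not the labels; replicates 2 and 3 deviated most with each other's number. Alternatives are given in the closing section.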

Additional observations from a re-analysis of the deposited data

How the results depend on the processing

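Of 560 recomputed member differences (a pseudocount of 0.1, quantile normalization, each library left out), 535 moved by less than the spread between replicates and 25 by more. Of members counted as apart, 0 changed direction, and 2 of 108 values with a library left out were no longer apart, both for Atic in D5-LSKCD201+ against mESC, without D5-LSKCD201+ replicate 1 or mESC replicate 3. The direction changed 13 times, for members not apart. Leaving out a library, the members apart ranged from 3 to 5 in FL-LSKCD201+ against BM-LSKCD201+, 2 to 3 in D5-LSKCD201+ against D5-LSKCD201-, 5 to 6 against mESC and 3 to 4 against FL-LSKCD201+.

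The count of other purine genes changed most where the fold threshold was dropped: on the adjusted p alone it was 32 in place of 10 in D5-LSKCD201+ against D5-LSKCD201-, 34 in place of 15 against mESC, 33 in place of 11 against FL-LSKCD201+ and 32 in place of 13 against BM-LSKCD201+, 23 in place of 7 in D5-LSKCD201- against mESC and 29 in place of 7 in FL-LSKCD201+ against BM-LSKCD201+. The last was 11 with a pseudocount of 0.1. Calls over all genes were also many more on the adjusted p alone. In the order above they were 3930 higher and 5419 lower of 13691, 5418 and 6078 of 13441, and 4105 and 5718 of 13627. The later comparisons had 4714 and 6772 of 13775, 4374 and 3044 of 13596, and 3004 and 4442 of 13503. In 3D+OP9 against 3D+0.1%gel the count of 2 other purine genes was 1 with a filter at 1 FPKM. That filter left out Xdh (means of 1.22 and 0 FPKM) and tested 39 of these genes in place of 40. The count was 1 after quantile normalization and ranged from 0 to 2 with a library left out, and the cause of these changes was not tested. The alternatives not named here (no filter, a constant prior variance, one fit over all 5 groups) kept the counts within 1.5 times.

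With the replicate number as a block the counts of other purine genes were 2, 10, 15, 7, 11, 13 and 7 in the 7 comparisons, the same as without it, FL-LSKCD201+ against BM-LSKCD201+ included. In 3D+OP9 against 3D+0.1%gel same-numbered libraries gave r of 0.18, 0.07 and 0.29, so a pairing is not settled, and the block moved the calls over all genes from 273 higher and 66 lower to 295 and 84. In the other 5 comparisons r ran from -0.20 to 0.10, and there the samples share only a number. Without counts, low levels such as those of Hprt in mESC and D5 cells have no counting error of their own.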
